A study of Saccharomyces cerevisiae with 6 samples.

Results

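The Snf1 kinase and the factors that act with it on carbon source genes were described by 10 genes: the kinase subunit genes SNF1, SNF4, SIP1, SIP2 and GAL83, the phosphatase subunit gene REG1 and the transcription factor genes CAT8, SIP4, ADR1 and MIG1. All 10 were found by name among the 5656 genes with a probe set of their own, each through 1 probe set that the platform table pairs with that gene alone. Of the 10, 9 entered the test across 4242 genes. MIG1 was too dim for it and is described by its values.

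The samples were biofilm cells (the labels' floaters), 3 arrays, and cells from the bottom of the same beakers (sinkers, also called planktonic in the labels), 3 arrays. Both came from 1 budding yeast strain, Saccharomyces cerevisiae 3238-32, which forms a film at the surface of a liquid. It carries the alleles leu2∆1, lys2-801 and ura3-52 and is labelled MATa. Cells grown for 24 h at 30°C in YEPD until no sugar was found were washed, diluted 10-fold into 100 ml of YNB with 4% ethanol, leucine, histidine and uracil, and left standing in 250 ml beakers at 27°C. After 48 h the film was aspirated first and the bottom cells second, so all 6 samples had ethanol as the carbon source and shared age and medium. The labels speak of triplicate beakers but do not say which beaker an array came from. P-values here rest on the spread among the 3 arrays of a group, which may be partly technical.

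Snf1 is the yeast member of the AMP-activated protein kinase family. It is active when glucose runs out and is needed for growth on ethanol. The kinase is a complex of the catalytic subunit Snf1, the regulatory subunit Snf4, which relieves Snf1 of its own inhibition, and a beta subunit, Sip1, Sip2 or Gal83, which sets where in the cell the complex acts. Reg1 brings the phosphatase Glc7 to Snf1 and switches it off when glucose is present. Active Snf1 inactivates the repressor Mig1 and turns on the activators Cat8, Sip4 and Adr1, through which cells make sugar from ethanol and burn ethanol and fatty acids. Cat8 is itself under Mig1 control and in turn raises SIP4. Much of this control acts on the proteins, by phosphorylation, which RNA levels do not measure.

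Most of the 10 genes that differed were lower in the biofilm. SNF1, SIP2, CAT8, SIP4 and ADR1 were lower by 1.76- to 2.97-fold, and SNF4 was higher by 1.67-fold. SIP1, GAL83 and REG1 did not pass the test. That is 5 of 9 lower and 1 of 9 higher at an adjusted p below 0.05, where among all 4242 genes 24.4% were lower and 38.0% higher, 62.5% in all. Of the 5 lower genes, SNF1 and ADR1 were bright enough for the test only through their bottom layer signal, as given below. The median log2 fold change (biofilm minus bottom layer) of the 9 was -0.82, against 0.17 for all genes tested. By signal range, the groups of 5 of the 10 genes did not overlap with the bottom layer above and of 1 with the biofilm above, where 26.7% and 41.3% of all genes tested did so, 68.0% in all. In bulk samples fewer cells that hold an RNA and less of it per cell cannot be told apart.

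**Figure D1:**
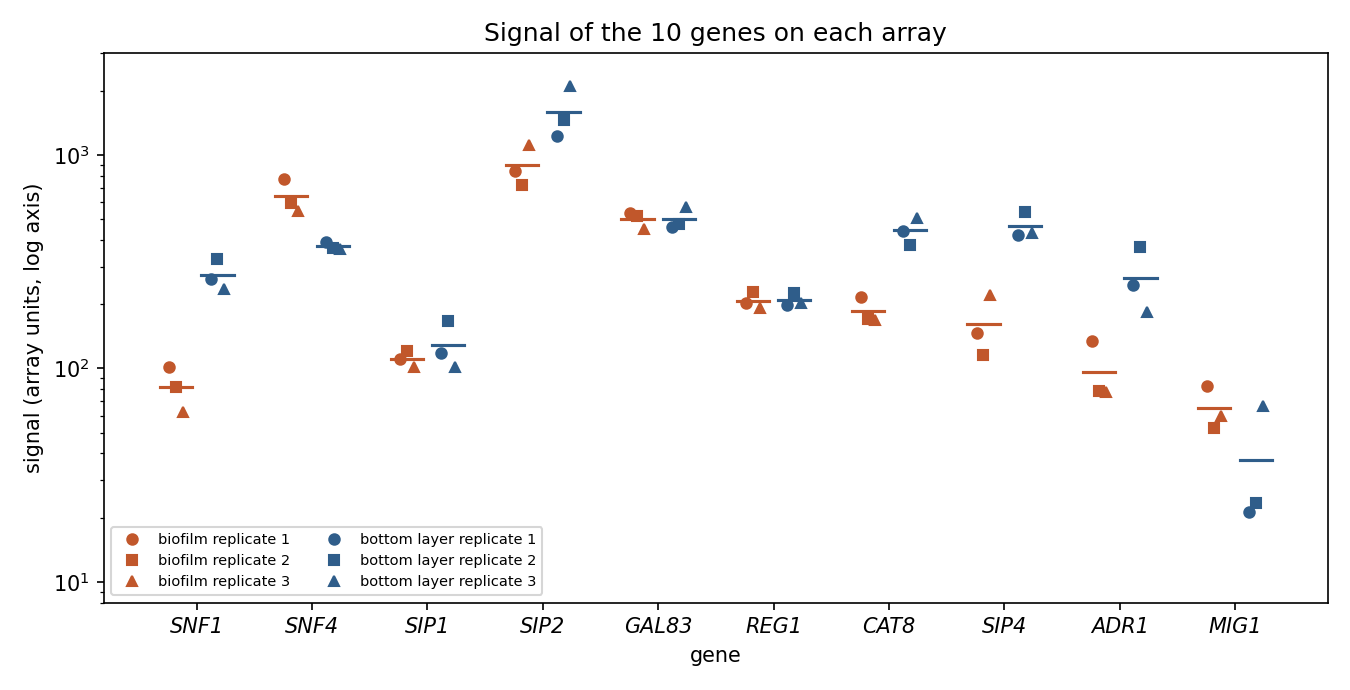
Signal of each gene on each array (vertical log axis, array units), with the 3 biofilm arrays left of the 3 bottom layer arrays for each gene, symbols for replicate numbers and a line at each group mean. The biofilm points of SNF1, SIP2, CAT8, SIP4 and ADR1 all lie below the bottom layer points, those of SNF4 lie above, and those of SIP1, GAL83, REG1 and MIG1 overlap. Heights of different genes cannot be compared, since each probe set has its own brightness.

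The arrays themselves differed in some control signals. Their means without the outer 2% of probe sets at each end were 500.3 to 500.5 and their medians 128 to 151. Bottom layer replicate 3 stood apart: its hybridisation spikes had a geometric mean signal of 2020 against 397 to 712 on the other 5 arrays, and the brightest of 19 control probe sets taken as not spiked read 44.8 against 16.3 to 21.9. The control probe sets for 18S ribosomal RNA were dimmer in the biofilm, at 716 to 1014 against 3343 to 4699 in the bottom layer, and the ratio of 3' to 5' ACT1 signal, a sign of RNA length, was 1.54 to 2.04 in the biofilm against 1.80 to 3.84 in the bottom layer. The same ratio for a 2nd control gene, TBP, leaned the other way, at 6.48 to 12.9 in the biofilm against 4.52 to 8.69 in the bottom layer. The 2 ratios therefore give no common direction of RNA length between the groups. The exact two-sided permutation p over 20 labellings was 0.10 for 18S, the smallest that 3 against 3 arrays allow. It was 0.20 for ACT1 and 0.30 for TBP. Their part in the results below was not tested beyond the fit with the ACT1 ratio as a covariate.

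Mating type markers went against the label. The 4 genes that mark alpha cells, MF(ALPHA)1, MF(ALPHA)2, STE3 and SAG1, lay above the unspiked controls on all 6 arrays, with a summed signal of 5228 to 6357 in the biofilm against 3697 to 5526 in the bottom layer. Of the 6 genes that mark a cells, MFA1, MFA2, STE2, STE6, BAR1 and AGA2, none lay above them on every array, and their sums were 84.1 to 119 in the biofilm against 210.2 to 278 in the bottom layer. All 6 were too dim to test, and of the 4 alpha genes 2 were higher and 2 lower in the biofilm. The strain is called here by its label. Of 8 sporulation genes 1 was bright enough to test, NDT80, which was 2.46-fold lower in the biofilm (adjusted p = 0.00452). The summed signal of the 8 was 179 to 373 in the biofilm against 578 to 663 in the bottom layer, and its part in the results was not tested.

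SNF1, the catalytic subunit gene, showed the largest fold of the 9 genes tested. Its signals were 101, 82.0 and 62.6 in the biofilm, against 261, 325 and 234 in the bottom layer. The highest biofilm value lay below the lowest bottom layer value. The biofilm mean was 82.0 ± 19.4 and the bottom layer mean 273 ± 46.4 (SD, n = 3 each), 2.97-fold lower in the biofilm (log2 fold change -1.57, SE 0.20, adjusted p = 7.57e-05). Only 6.20% of the 4242 genes had a lower log2 fold change.

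SNF4, the regulatory subunit gene, went the other way. It gave 774, 595 and 548 in the biofilm against 389, 367 and 361 in the bottom layer. The bottom layer arrays were close together, all below the biofilm arrays, which spread more. The biofilm mean was 639 ± 119 and the bottom layer mean 372 ± 14.8, 1.67-fold higher (log2 fold change 0.74, SE 0.17, adjusted p = 0.00313). With each array centred on its median the log2 fold change was 0.53 (adjusted p = 0.0154).

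Of the beta subunit genes SIP2 was lower in the biofilm, and GAL83 and SIP1 did not pass. SIP2, whose protein keeps the complex in the cytoplasm, had 838, 721 and 1117 in the biofilm against 1223, 1464 and 2102 in the bottom layer. The groups did not overlap, but biofilm replicate 3 came close to bottom layer replicate 1. Means of 892 ± 204 in the biofilm against 1596 ± 454 in the bottom layer made SIP2 1.76-fold lower in the biofilm (log2 fold change -0.82, SE 0.22, adjusted p = 0.00827). The call was lost with the ACT1 ratio as a covariate, where the log2 fold change was -0.63 and adjusted p = 0.0726. Without bottom layer replicate 3, the brightest array for this gene, it was -0.60 (adjusted p = 0.0252).

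GAL83 encodes the beta subunit that takes the kinase to the nucleus when glucose is gone. Its signals were 534, 520.0 and 448 in the biofilm against 460.4, 473 and 569 in the bottom layer, fully intermixed. The mean was 501 ± 46.3 in the biofilm against 501 ± 59.4 in the bottom layer. The log2 fold change was 0.0017 with a 95% interval from -0.35 to 0.36 (adjusted p = 0.993), which leaves room for a fold of up to 1.28 either way. SIP1, whose protein is linked to the vacuole, had 110.2, 120.1 and 102 in the biofilm against 119, 166 and 102 in the bottom layer. The groups overlapped, with bottom layer replicate 2 alone above the rest. The log2 fold change was -0.17 (95% interval -0.61 to 0.26, adjusted p = 0.462), so a decrease to 0.657 of the bottom layer level is within the interval.

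**Figure D2:**
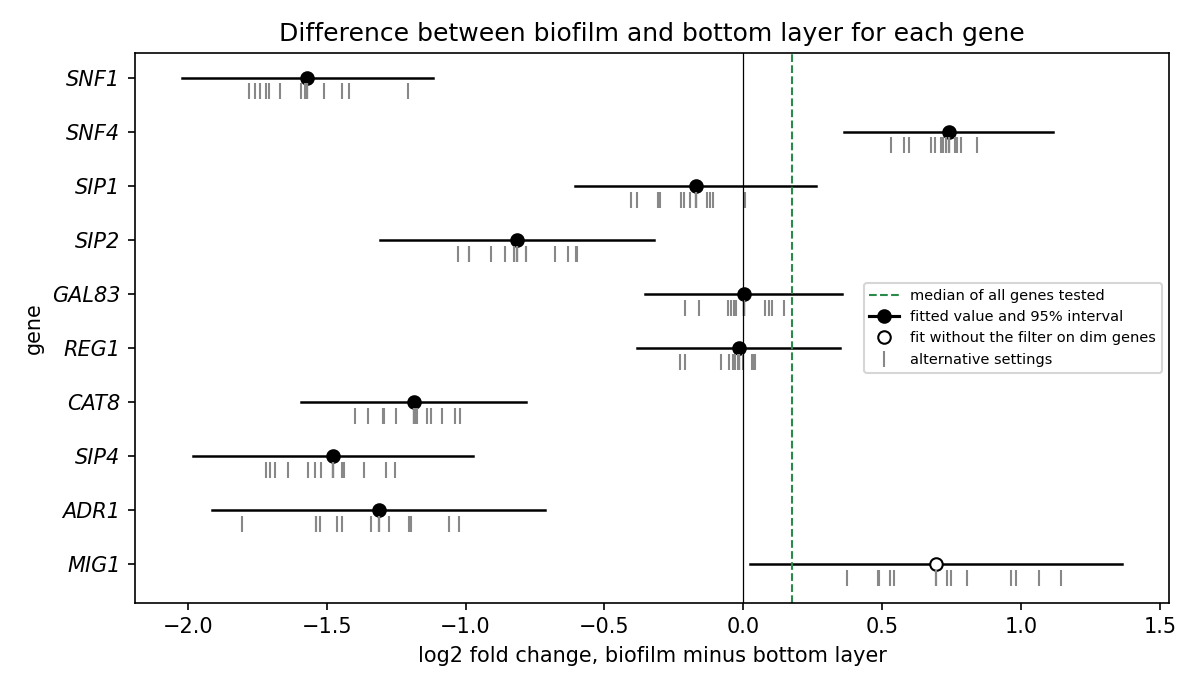
Log2 fold change of each gene (horizontal axis, biofilm minus bottom layer): points are fitted values with 95% intervals, grey ticks the values under alternative settings and the dashed line the median of all genes tested, 0.17. SNF1, SIP2, CAT8, SIP4 and ADR1 lie left of 0 under every alternative drawn and SNF4 to the right, while ticks of SIP1, GAL83 and REG1 fall on both sides. The open point of MIG1 comes from a fit without the filter on dim genes.

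Ratios between genes on the same array do not depend on how bright the array is as a whole, apart from the constant of 16 added to each signal. The ratio of SNF1 to SNF4 was -2.74 ± 0.10 on the log2 scale in the biofilm against -0.44 ± 0.23 in the bottom layer (SD, n = 3 each), a difference of -2.31. The difference was larger than either SD. SIP2 to GAL83 was 0.79 ± 0.44 in the biofilm against 1.61 ± 0.24 in the bottom layer, a difference of -0.82. In both pairs all 3 biofilm ratios lay below all 3 bottom layer ratios. The difference of a ratio follows by arithmetic from the log2 fold changes of its 2 genes. It is therefore not a separate result, and only the spread of the ratios is new here.

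Of the other pairs compared, CAT8 to MIG1, which includes the dim MIG1, differed by -1.88, with no overlap between groups. CAT8 to SIP4 differed by 0.29, SIP1 to SIP2 by 0.64, SIP1 to GAL83 by -0.17 and MIG1 to REG1 by 0.71, all with overlapping groups. With 7 pairs and 3 against 3 arrays an exact two-sided permutation test cannot go below p = 0.10, or 0.233 after Benjamini-Hochberg adjustment, which is what SNF1 to SNF4, SIP2 to GAL83 and CAT8 to MIG1 gave. No pair could therefore pass the threshold.

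**Figure D3:**
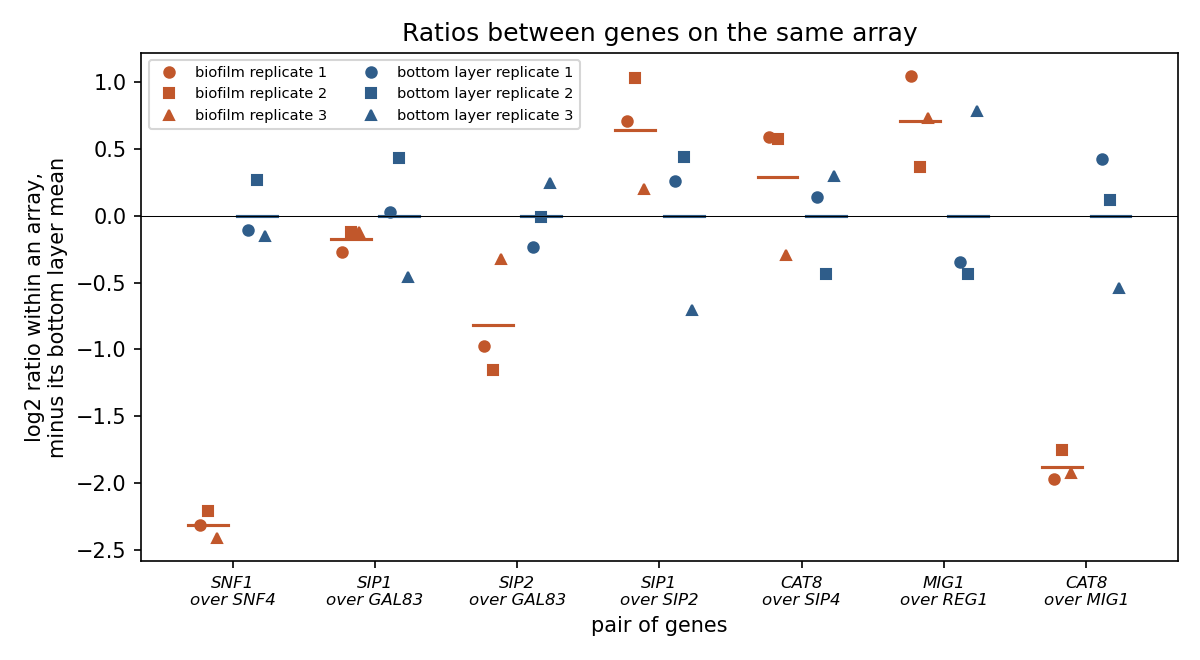
Log2 ratio of 2 genes on the same array, less the mean of that ratio in the bottom layer (vertical axis), for 7 pairs, with biofilm arrays left of bottom layer arrays and lines at group means. The 3 biofilm points of SNF1 over SNF4 sit near -2.31 and those of CAT8 over MIG1 near -1.88, below all bottom layer points of the same pair.

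REG1, the targeting subunit of the phosphatase that turns Snf1 off, had 202, 227 and 192 in the biofilm against 199, 226 and 203 in the bottom layer. The 2 groups covered nearly the same range. The biofilm mean was 207 ± 18.1 and the bottom layer mean 209 ± 14.4, and the log2 fold change was -0.017 (95% interval -0.38 to 0.35, adjusted p = 0.938). REG2, a relative of REG1 that also binds Glc7 and is known to be repressed by glucose, was lower. It gave 1204, 1290.1 and 924 in the biofilm against 2562, 2637 and 2744 in the bottom layer. It was 2.33-fold lower in the biofilm (log2 fold change -1.22, SE 0.16, adjusted p = 7.96e-05). GLC7, the catalytic subunit of the phosphatase, narrowly missed the threshold, with log2 fold change -0.61 ± 0.25 (SE) and adjusted p = 0.0524. It passed under 8 alternatives, among them the fits without biofilm replicate 1 (adjusted p = 0.0121) or bottom layer replicate 3 (0.0114).

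CAT8, SIP4 and ADR1, the activator genes, were all lower in the biofilm. CAT8, the activator of gluconeogenesis genes, had 217, 171 and 168 in the biofilm against 442, 377 and 509 in the bottom layer. All bottom layer arrays lay above all biofilm arrays. Means of 185 ± 27.4 in the biofilm against 443 ± 65.8 in the bottom layer made it 2.28-fold lower (log2 fold change -1.19, SE 0.18, adjusted p = 0.000245).

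SIP4, which encodes a related activator that binds the same promoter element, had 146, 116 and 219.7 in the biofilm against 419, 541 and 432 in the bottom layer. Biofilm replicate 3 was the highest of its group and still below every bottom layer array. The biofilm mean was 161 ± 53.4 and the bottom layer mean 464 ± 67.1, 2.78-fold lower in the biofilm (log2 fold change -1.48, SE 0.23, adjusted p = 0.000239). SIP4 and CAT8 fell by amounts whose difference was smaller than the spread between arrays, as their ratio above shows.

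ADR1 encodes the activator of alcohol dehydrogenase 2, peroxisome and glycerol genes. It had 134, 78.0 and 77.2 in the biofilm against 246, 370.2 and 183 in the bottom layer. Biofilm replicate 1 and bottom layer replicate 3 came closest, and the groups did not overlap. Of the 5 lower genes it had the largest SE. The biofilm mean was 96.4 ± 32.5 and the bottom layer mean 266 ± 95.3, 2.48-fold lower in the biofilm (log2 fold change -1.31, SE 0.27, adjusted p = 0.00165). This biofilm mean too lay below the filter signal of 97.5, so ADR1 entered the test through its bottom layer signal. In the fit without the filter adjusted p was 0.00212.

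MIG1 encodes the repressor that keeps these genes off while glucose is present. Its signals were 82.8, 52.6 and 59.7 in the biofilm against 21.2, 23.4 and 66.8 in the bottom layer. Bottom layer replicate 3 fell among the biofilm values and the other 2 bottom layer arrays lay below all of them, near their brightest unspiked controls of 17.3 and 16.3. The biofilm mean was 65.1 ± 15.8 and the bottom layer mean 37.1 ± 25.7. With a mean of 5.98 on the log2(signal + 16) scale MIG1 lay under the filter on dim genes, which stood at 6.83, while SIP1, the dimmest of the 10 that entered the test, was at 7.07. In a fit without that filter the log2 fold change was 0.69 (SE 0.30, adjusted p = 0.0733). Without bottom layer replicate 3, the array with the brighter spikes and controls, it was 1.06 (adjusted p = 0.00204). With that array kept, MIG1 passed with array weights (0.98, adjusted p = 0.00272) and with the ACT1 covariate (1.15, adjusted p = 0.0141) and not under the other alternatives. Bottom layer replicate 3 also had the highest ACT1 ratio, 3.84, where the other arrays had 1.54 to 2.36. The covariate fit is therefore not independent of that array. How far the array weights rest on it was not tested.

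Of 13 regulators and partners of the kinase, 7 were tested, of which 3 were lower in the biofilm and 1 higher. Among all genes tested 24.4% were lower and 38.0% higher, 62.5% in all, so the share of the 7 that was called is near that of all genes. Their median log2 fold change was -0.48. BMH2, a 14-3-3 protein gene, was 3.13-fold lower at 456 ± 96.7 in the biofilm against 1459 ± 310.2 in the bottom layer (adjusted p = 4.99e-05), while its close relative BMH1 had a log2 fold change of -0.22 (adjusted p = 0.292); how far the probes of these similar genes pick up each other's RNA was not tested. The remaining lower gene beside REG2 was the PAS kinase gene PSK1, at a log2 fold change of -0.48 (adjusted p = 0.0467), with overlapping groups. That call was lost with the ACT1 covariate (-0.17, adjusted p = 0.487) and without biofilm replicate 1 or 3 or bottom layer replicate 1 or 3 (adjusted p = 0.0793 to 0.176). It was also lost with no filter (adjusted p = 0.0542), with no variance trend (0.0583) and under the filter by unspiked controls (0.0519). MSN5, whose protein carries phosphorylated Mig1 out of the nucleus, was 2.01-fold higher at 1219.5 ± 178 in the biofilm against 598 ± 76.3 in the bottom layer (adjusted p = 0.000342).

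Of the 3 kinases known to switch Snf1 on, TOS3 had a log2 fold change of -0.34 (adjusted p = 0.188). SAK1 and ELM1 were left out as dim. SAK1 had 47.2 ± 6.49 in the biofilm against 56.6 ± 14.9 in the bottom layer. ELM1, which also acts in bud shape, was at 172, 189 and 210.3 in the biofilm against 35.3, 42.1 and 43.5 in the bottom layer, and gave a log2 fold change of 1.87 in the fit without the filter (adjusted p = 1.41e-05). Its bottom layer signal lay under the brightest unspiked control on 1 of 3 arrays, replicate 3, so this fold is uncertain. SIP5, whose protein binds Snf1 and Reg1, was dim too, at 67.1 ± 20.7 in the biofilm against 149 ± 53.5 in the bottom layer. In the fit without the filter its log2 fold change was -0.96 (adjusted p = 0.0144). That call was lost with the ACT1 covariate (adjusted p = 0.0629) and without biofilm replicate 2 (0.0605) or bottom layer replicate 3 (0.0519). SIT4, STD1 and PSK2 were also left out as dim.

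Of 17 repressors and activators that share targets with the 10 genes, 12 were tested, with 5 higher and 3 lower in the biofilm and a median log2 fold change of -0.32. These shares are near those of all genes tested, of which 38.0% were higher and 24.4% lower. On the repressor side HXK2, the hexokinase that binds Mig1, was 2.84-fold higher (adjusted p = 2.31e-05). CYC8, of the co-repressor that Mig1 recruits, was also higher, at 170.4 ± 44.2 in the biofilm against 76.7 ± 9.90 in the bottom layer (1.98-fold, adjusted p = 0.00200). Its bottom layer mean lay below the filter signal of 97.5, so CYC8 entered the test through its biofilm signal. TUP1, the partner of Cyc8, had a log2 fold change of -0.32 (adjusted p = 0.252). It passed without bottom layer replicate 3 (-0.56, adjusted p = 0.0358), with the ACT1 covariate (-0.82, 0.00412) and under median centring (-0.53, 0.0378), and ran from -0.56 to -0.059 with each array left out. NRG2, a repressor that Snf1 acts on, was 1.36-fold higher (adjusted p = 0.0456). NRG1, its relative, was too dim to test, at 24.3 ± 4.38 in the biofilm against 116 ± 67.6 in the bottom layer. In the fit without the filter NRG1 had a log2 fold change of -1.57 (adjusted p = 0.00278), opposite in direction to NRG2. The Mig1 relatives MIG2 and MIG3 were too dim as well, and RGT1 and MTH1, which act in repression of glucose transporter genes, did not pass.

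On the activator side HAP3, a subunit of the Hap complex for respiration genes, was 2.00-fold higher (adjusted p = 0.000268), HAP2, another of its subunits, 1.51-fold lower (adjusted p = 0.0140, but 0.0707 without biofilm replicate 2), and HAP4, its regulatory subunit, did not pass (log2 fold change -0.44, adjusted p = 0.150). ERT1 and RDS2 encode zinc cluster regulators of gluconeogenesis. ERT1 was 2.36-fold lower at 100.2 ± 4.78 in the biofilm against 268 ± 85.5 in the bottom layer (adjusted p = 0.000930), and RDS2 1.39-fold higher (adjusted p = 0.0279). OAF1, the fatty acid sensor that activates peroxisome genes, was 2.02-fold lower (adjusted p = 0.000310), and its partner PIP2, too dim to test, had a log2 fold change of -1.02 in the fit without the filter (adjusted p = 0.00136). The calls of NRG2 and RDS2 were lost when any array but bottom layer replicate 2 was left out, which leaves 3 higher genes in place of 5, and also under quantile normalization, under median centring and with the ACT1 covariate.

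**Figure D4:**
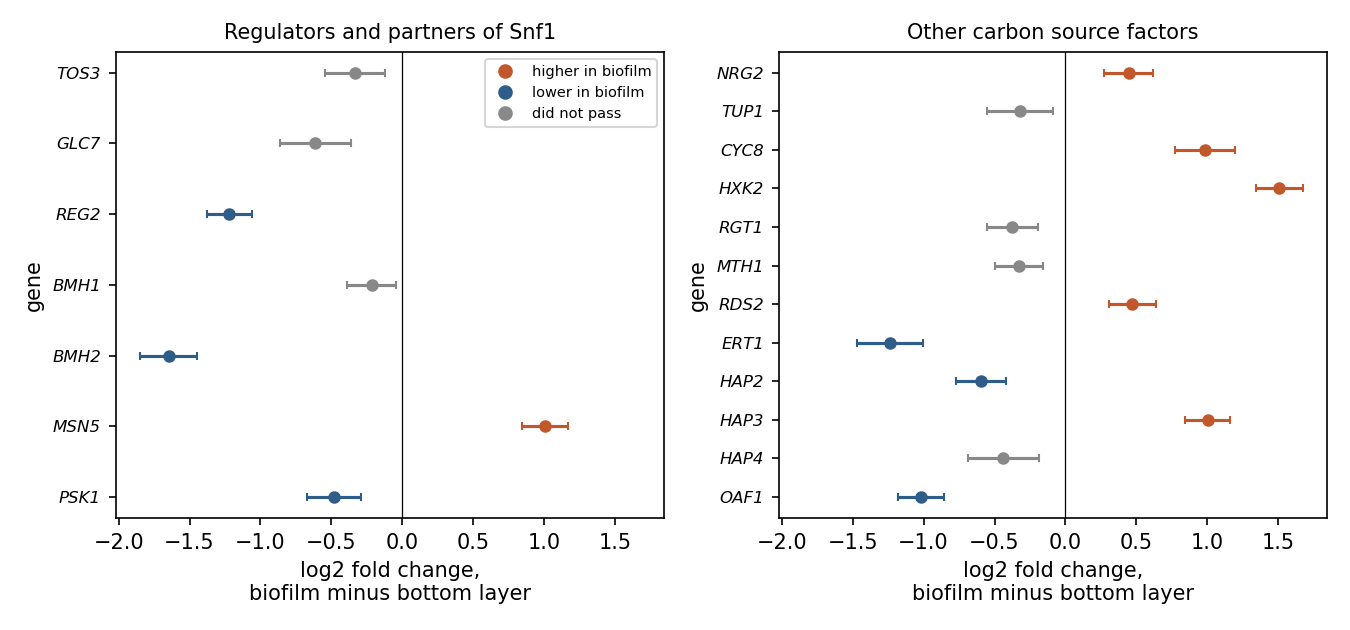
Log2 fold change with its standard error (horizontal axis, biofilm minus bottom layer) of the tested regulators and partners of Snf1 on the left and of other carbon source factors on the right, coloured by call. HXK2 at 1.51 and MSN5 at 1.01 are the highest of their panels and ERT1 at -1.24 and BMH2 at -1.65 the lowest.

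Genes that the 4 transcription factors act on were mostly lower or not called. The lists, from general knowledge of yeast, were chosen with earlier results of these data known, so their counts are not an outside check. They overlap: the Cat8 or Sip4 and the Adr1 lists share 4 genes. Of these ACS1, ADY2 and ATO3 were lower and are counted in both lists. Of 14 targets of Cat8 or Sip4, all tested, 9 were lower in the biofilm and 0 higher by limma, also 0 at an unadjusted p below 0.05, where 24.4% of all genes tested were lower and 38.0% higher. The median log2 fold change of the 14 was -0.61. With each array left out in turn, 7 to 12 of the 14 were lower and 0 higher. ATO3, an ammonium exporter gene, was 10.5-fold lower at 508 ± 84.7 in the biofilm against 5459.6 ± 223 in the bottom layer (adjusted p = 2.66e-07). JEN1, the lactate and pyruvate permease gene, was 3.15-fold lower at 3829.8 ± 158 in the biofilm against 12491 ± 4108 in the bottom layer (adjusted p = 0.000105). The acetate transporter gene ADY2, the carnitine carrier gene CRC1 and the acetyl-CoA synthetase gene ACS1 were 6.21-, 3.62- and 4.12-fold lower. FBP1, the fructose bisphosphatase of gluconeogenesis, named after its values were seen, did not pass, at 7858 ± 747 in the biofilm against 10493 ± 3383 in the bottom layer (adjusted p = 0.192), but did without bottom layer replicate 2 (log2 fold change -0.58, adjusted p = 0.0388). The enzyme genes ICL1, MLS1 and MDH2 did not pass either (adjusted p = 0.0868, 0.223 and 0.0962). PCK1, another gluconeogenesis gene, was 1.61-fold lower (adjusted p = 0.0340). Bottom layer replicate 3 was its brightest array, at 17388.5 against 9580 and 9162 on replicates 1 and 2 of that group. ICL1, MLS1, MDH2 and PCK1 too were named after their values were seen. They were not followed singly under the alternatives.

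For Adr1, 19 of 21 targets were tested, of which 10 were lower and 2 higher, beside 24.4% and 38.0% of all genes tested. The other 7 did not pass, and the median log2 fold change was -0.66. POT1, thiolase of fatty acid oxidation, was 6.91-fold lower, RGI2, a gene of respiratory growth, 7.04-fold and POX1, acyl-CoA oxidase, 2.98-fold. POX1 fell to 483 ± 66.2 in the biofilm, against 1464 ± 52.6 in the bottom layer. The 2 higher genes, named after their values were seen, were ICL2 and CIT3, mitochondrial enzymes of propionate use, at log2 fold changes of 1.53 and 1.03 (adjusted p = 1.81e-05 and 0.000719). ADH2, the alcohol dehydrogenase gene by which Adr1 was found, also named after its values were seen, had 13664 ± 2274 in the biofilm against 18119 ± 7126 in the bottom layer (log2 fold change -0.35, adjusted p = 0.305).

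Of 17 genes known to be repressed through Mig1, 15 had a probe set of their own and 12 were tested, of which 6 were lower and 0 higher by limma, also 0 at an unadjusted p below 0.05, beside 24.4% and 38.0% of all genes tested. The other 6 did not pass, and the median log2 fold change was -0.56. Beside JEN1 and REG2, EMI2, a glucokinase-like gene, was 2.51-fold lower (adjusted p = 1.96e-05), MAL33, a maltose activator gene, 2.89-fold and HXK1, a hexokinase gene, 1.69-fold. Over the 5 lists of regulators and targets, 56 different genes were tested, and 26 were lower and 8 higher, so that the share called in either direction is near the 62.5% of all genes tested, of which 24.4% were lower and 38.0% higher. With each array left out in turn, 23 to 30 were lower and 6 to 8 higher, with 29 and 6 without bottom layer replicate 3. Under median centring 34 were lower and 6 higher.

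**Figure D5:**
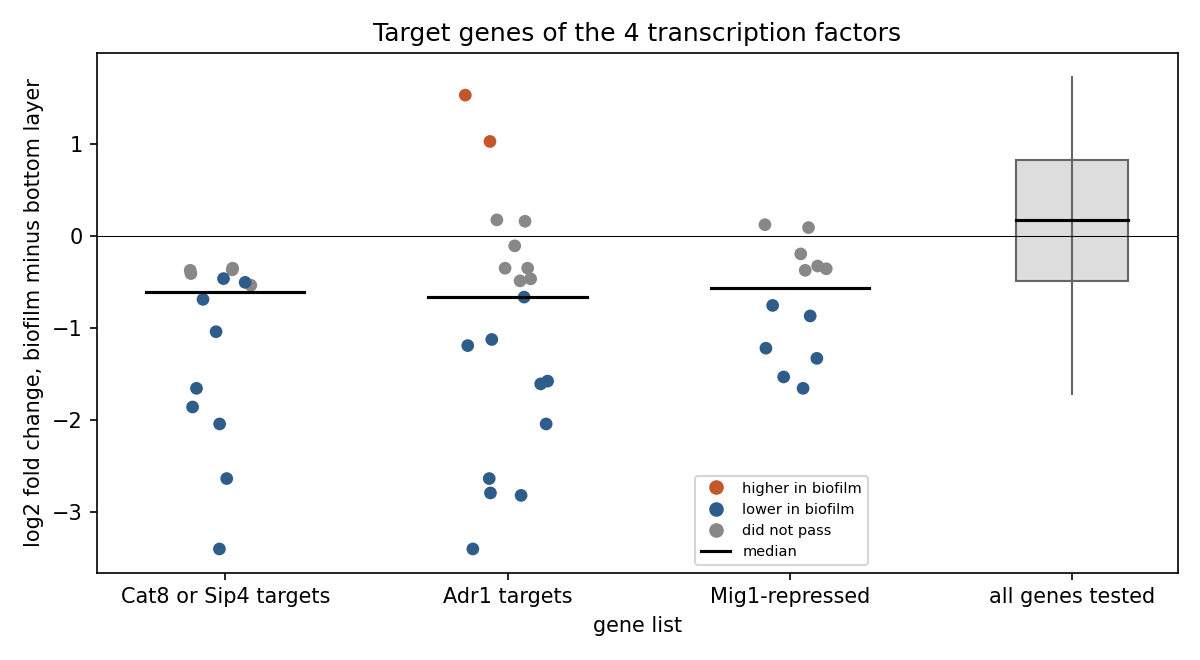
Log2 fold change (vertical axis, biofilm minus bottom layer) of the tested targets of Cat8 or Sip4, of Adr1 and of Mig1, 1 point a gene, coloured by call, with list medians of -0.61, -0.66 and -0.56. The box of all genes tested spans the 25th to 75th percentile, its line the 5th to 95th, with the median at 0.17.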

How the data were processed

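The authors deposited an intensity for each probe set on each array, on a linear scale. Per the submitters' processing notes MAS5 was used; its version is not given in the sources used here. GEO's platform table pairs 6504 of 9335 probe sets with a single gene and 328 with several; 60 are controls and 2443 have no entry. Symbols were updated by gene identifier through a table of assembly R64, used for names only. Values were taken as log2(signal + 16), which understates folds of dim genes. For each gene the probe set with the highest mean of these values was kept, and the dimmest 25% of genes were left out. The comparison used limma 3.58.1 under R 4.3.3, with a variance trend, two-sided p-values adjusted by Benjamini-Hochberg over all 4242 genes and a threshold of 0.05; folds come from the fit and means ± SD from linear signals. The 10 genes, the lists and the tests were chosen with earlier results of these data known. All 10 were named, with any gene of the 2 regulator lists and up to 5 called genes of each target list by smallest p. On simulated data with 4242 genes the fit recovered 73.1% of 67 genes given a log2 change of 1 and 8.96% of 67 given 0.5. Of 66 given a change of 2 it recovered 100%, with 7 false calls among 128. The measured arrays gave 2650 calls among 4242 genes, and with more calls the adjustment lets larger p-values pass. Recovery at that share of called genes was not tested. Alternatives were other pseudocounts (1 and 64), filters and normalizations, no trend, array weights, a replicate block, the ACT1 ratio as a covariate and the omission of each array in turn. Plots were made with matplotlib 3.10.9.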

Additional observations from a re-analysis of the deposited data

How the results depend on the processing

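The calls of SNF1, SNF4, CAT8, SIP4 and ADR1 and their directions held under all alternatives in which they were tested, with log2 fold changes of -1.78 to -1.21, 0.53 to 0.84, -1.40 to -1.02, -1.72 to -1.25 and -1.80 to -1.02. SIP2 lost its call with the ACT1 covariate (-0.63). Without the dimmest 50% of genes 3 of the 10 were lower, since SNF1 and ADR1 were then not tested. MIG1, without the filter, passed with array weights (0.98), with the ACT1 covariate (1.15) and without bottom layer replicate 3, and ran from 0.49 to 1.06 with each array left out. GAL83, REG1, SIP1, BMH1, ADH2 and FBP1, which did not pass, changed sign under some alternatives. GAL83 was -0.16 under quantile normalization, -0.21 under median centring and -0.054 to 0.094 with each array left out, and REG1 was 0.043 with array weights and -0.081 to 0.035 with each array left out. SIP1 ran from -0.31 to 0.0054 with each array left out, and its ratio to GAL83 from -0.40 to 0.041. With the ACT1 covariate BMH1 was 0.010, ADH2 0.21 and FBP1 0.068, and ADH2 was 0.11 under quantile normalization; with each array left out ADH2 ran from -0.59 to -0.051 and FBP1 from -0.58 to -0.13. TOS3, GLC7, TUP1, RGT1, MTH1 and HAP4, which did not pass either, kept their sign and passed under 3, 8, 3, 2, 2 and 1 alternatives. The cause was not tested.

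Of the regulators of Snf1, 2 were higher without a filter and under the filter by unspiked controls, a setting chosen after seeing the data, where ELM1 entered; 5 were lower under quantile normalization, median centring and array weights. Of the other factors 3 were higher without the dimmest 50%, under quantile normalization, median centring and the ACT1 covariate, and 3 to 5 with each array left out. Lower were 5 without a filter, with the unspiked controls and under quantile normalization, 7 under median centring and 1 without the dimmest 50%.

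Over all genes 1613 were higher and 1037 lower, 60.9% higher, but 49.0% under median centring (1295 and 1347), which moved the median log2 fold change to -0.035, against 0.17 without it. Same-numbered arrays did not deviate together (correlations of -0.013, -0.093 and 0.16), so the numbers were not taken as pairs; with the replicate block 1590 genes were higher and 1046 lower, and 5 of the 10 genes lower and 1 higher. Under the block NRG2 (adjusted p = 0.0613) and PSK1 (0.0681) lost their calls and GLC7 gained one (0.0160), and 26 of the genes on the 5 lists were lower and 7 higher. The number of arrays and, for MIG1 and other dim genes, signals near background limit the precision.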
